A study of Rattus norvegicus with 64 samples.

Results

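Astrocytes take up the glutamate that neurons release, turn it into glutamine, clear potassium and water from around active neurons, and join one another through gap junctions. The 10 genes described here are widely used markers and transporters of these cells, Slc1a2, Slc1a3, Glul, Aqp4, Kcnj10, Gja1, Gjb6, Gfap, S100b and Aldh1l1. They were taken by symbol from the 17260 genes counted in each library, and all 10 passed the filter on low counts that left 12521 genes to test. In the rodent cortex most astrocytes are made around and after birth, and they then extend fine processes, contact vessels and synapses, and acquire the channels and transporters of the mature cell. A dense astrocyte layer also lines the brain surface beneath the meninges and is rich in the filament protein Gfap.

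Ribosomal RNA-depleted total RNA was sequenced from Long Evans rats of 4 ages, postnatal day (P) 2, 9, 23 and 45. The tissue was entorhinal cortex, cut from brain slices under a microscope. Its medial (MEC) and lateral (LEC) parts were each dissected into layer II (LII) and a piece holding the layers below it (LDeep), which gives 16 groups and 64 libraries. Each group held 5 libraries (P2), 4 (P9), 3 (P23) or 4 (P45), and P2 and P9 are called younger and P23 and P45 older. The labels name no treatment, genotype or sex. They number the replicates without naming animals. The study calls its MEC samples biological replicates. In a plot of its MEC microRNA samples, not of these libraries, it gives both layers of an animal a common number. No source used here says that the replicate numbers are those, and nothing is said of the LEC. The tests treat every library as a replicate, although libraries of an animal are not independent, and values with the number as a block are given where they change a call. In such bulk samples, fewer cells of a type and less RNA per cell cannot be told apart. Library totals ran from 3894334 to 11439143 assigned read pairs.

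Promoter sequence is shown for 5 of the genes: S100b and Gjb6, which had the largest age differences, Slc1a3, a transporter already abundant at P2, Aldh1l1, which fell with age, and Gfap, which was higher in LII in every numbered pair of libraries. Each line holds the 250 bases before an annotated start, from RefSeq on build GRCr8, while the counts were made on Rn6. Capitals mark TTGGCA, a short motif bound by nuclear factor I proteins, or its reverse complement TGCCAA. For Gjb6 the second of its annotated starts is shown, since the window of the first held no match. Aldh1l1 is on the plus strand in RefSeq and on the minus strand in the exon coordinates of the files.
S100b, chr20:12381082-12381331, minus strand: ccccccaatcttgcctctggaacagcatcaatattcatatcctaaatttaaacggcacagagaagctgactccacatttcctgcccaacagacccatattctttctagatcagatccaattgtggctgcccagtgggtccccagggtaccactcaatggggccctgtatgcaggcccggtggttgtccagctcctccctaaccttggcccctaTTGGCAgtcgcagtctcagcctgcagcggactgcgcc
Gjb6, chr15:35408963-35409212, minus strand: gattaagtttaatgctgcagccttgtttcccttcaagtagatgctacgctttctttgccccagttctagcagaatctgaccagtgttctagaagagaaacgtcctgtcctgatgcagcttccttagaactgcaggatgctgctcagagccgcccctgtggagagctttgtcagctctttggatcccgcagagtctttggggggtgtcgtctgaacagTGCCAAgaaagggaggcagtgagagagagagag
Slc1a3, chr2:59557809-59558058, minus strand: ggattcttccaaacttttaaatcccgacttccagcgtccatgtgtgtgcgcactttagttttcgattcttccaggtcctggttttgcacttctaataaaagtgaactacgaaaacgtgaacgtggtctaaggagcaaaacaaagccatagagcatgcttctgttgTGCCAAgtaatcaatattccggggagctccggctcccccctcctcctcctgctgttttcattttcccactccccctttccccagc
Aldh1l1, chr4:124616970-124617219, plus strand: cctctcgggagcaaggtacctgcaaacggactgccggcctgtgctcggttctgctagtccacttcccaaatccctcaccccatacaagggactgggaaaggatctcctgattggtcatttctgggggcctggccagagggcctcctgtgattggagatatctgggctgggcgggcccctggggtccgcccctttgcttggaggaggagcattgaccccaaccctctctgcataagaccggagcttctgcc
Gfap, chr10:88361662-88361911, minus strand: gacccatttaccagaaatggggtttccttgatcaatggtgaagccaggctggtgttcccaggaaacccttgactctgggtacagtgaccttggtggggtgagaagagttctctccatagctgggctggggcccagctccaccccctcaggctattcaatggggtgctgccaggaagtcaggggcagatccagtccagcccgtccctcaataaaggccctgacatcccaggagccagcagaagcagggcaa

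All 10 genes matched the promoter table, with 16 windows. Of these, 6 windows of 4 genes (Gjb6, Glul, S100b and Slc1a3) held TTGGCA on either strand, and the 3 windows of Slc1a3 overlap and share their match. Over all 33469 windows of this length, 12.02% held it. The match began 37 bases before the start of S100b, 33 before that of Gjb6 and 85 before that of Slc1a3 in the windows printed. The windows of Aldh1l1 and Gfap held no match. The STAT motif TTCNNNGAA, which reads the same on both strands, was in 0 of the 16 windows and in 7.67% of all windows. G and C made up 44.8% to 72.4% of the bases in the windows of the 10 genes, against a median of 51.2% over all windows. These are matches of letters, and no binding was measured.

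Before the results, 3 libraries of the MEC at P2 stood apart, with levels opposite to those of the other libraries of their labelled layer. The summed level of 10 markers of meningeal fibroblasts, the cells of the membranes over the brain, was 43.6 and 44.0 CPM (counts scaled to a fixed library total) in MEC LII replicates 1 and 3, against 824 to 1631 CPM in the other LII libraries at P2. It was 1192 CPM in MEC LDeep replicate 1, against 30.5 to 97.2 CPM in the other LDeep libraries at P2. Gjb6 went with these levels. It was 0.90 and 0.39 log2 CPM in the LII libraries, against 4.05 to 5.40 in the others, and 5.06 in the LDeep library, against -1.31 to 1.63 in the others. MEC LII replicate 1 also held 259 CPM of 6 choroid plexus and ependyma markers, against at most 24.5 CPM in any other P2 library. Whether their layer labels are right was not tested, and every P2 and pooled layer value from all 64 libraries uses them as labelled. Results that rest on them are therefore also given for the 61 that remain without them. That choice was made after the data were seen and used the meningeal sums and the levels of Gjb6. The values of Gjb6 in the 61 libraries are therefore descriptions with no test. Counts of calls there include Gjb6. The adjusted p of the other genes there follow the same choice and are given as descriptions too.

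With age, 9 of the 10 genes rose and Aldh1l1, a folate enzyme used as a general astrocyte marker, fell. The comparison sets the older ages against the younger ones over both regions and both layers. All 10 passed edgeR's quasi-likelihood test at a Benjamini-Hochberg (BH) adjusted p of 0.05, where 81.6% of all tested genes passed, 41.0% upward and 40.6% downward, so the count of calls does not set the 10 genes apart. Their median log2 fold change (LFC) was 1.58, and that of all tested genes was 0.01. In the 61 libraries again all 10 were called, Gjb6 included, with a median LFC of 1.62.

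**Figure D1:**
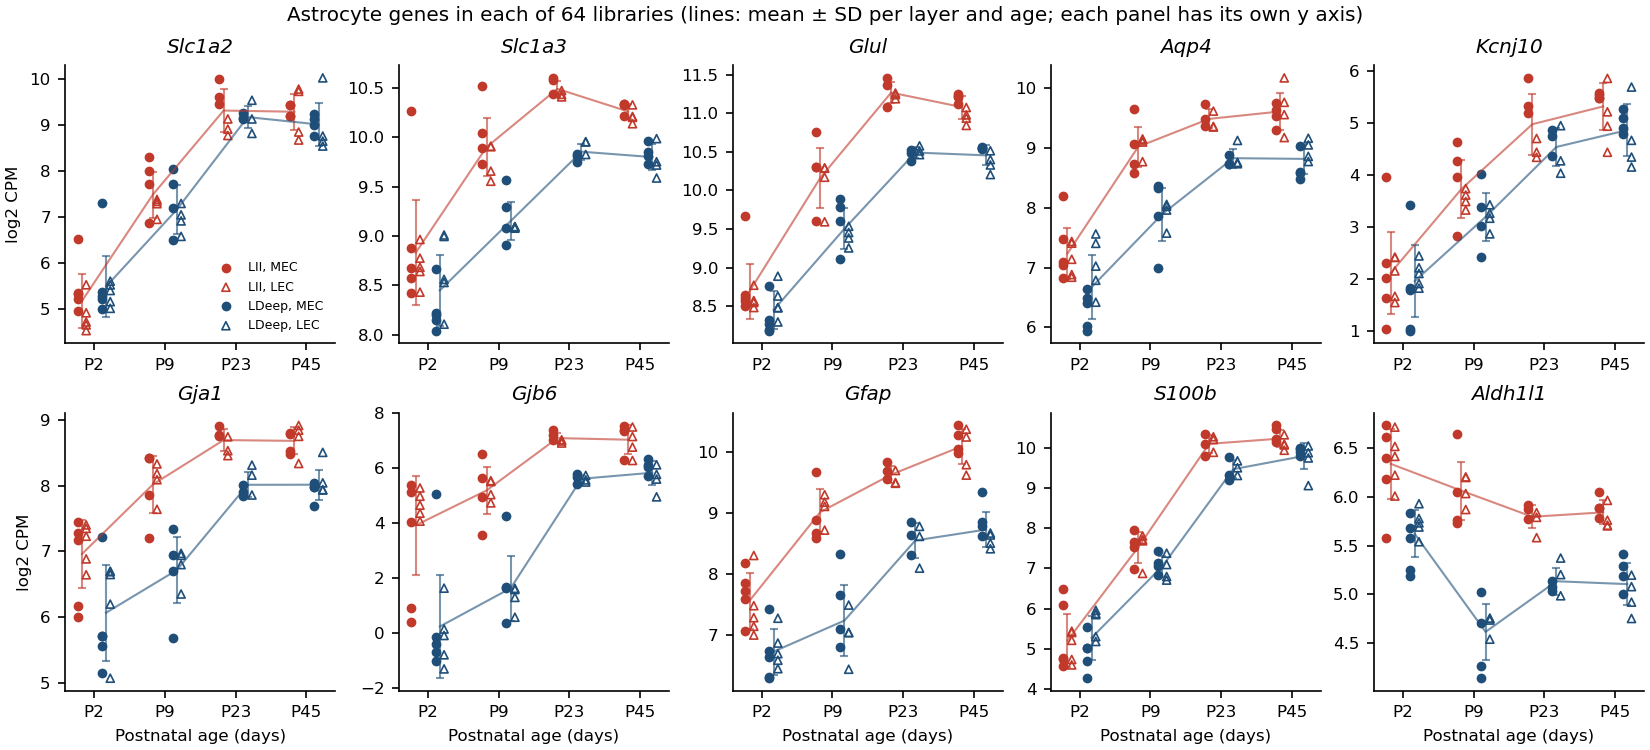
Level of each gene as log2 CPM (y axis, a separate scale in each panel) in 64 libraries by postnatal age (x axis). Red marks LII and blue LDeep, filled circles the MEC and open triangles the LEC, and lines join the layer means with their SD. S100b climbs from a median of 5.20 at P2 to 10.02 at P45, while Aldh1l1 starts at 5.88 and ends at 5.56.

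S100b, a calcium-binding protein of astrocytes and also of some oligodendrocytes, had the largest age difference of the 10. The gene lies at chr20:13130636-13142856 on the minus strand of Rn6. Its lowest, median and highest log2 CPM were 4.27, 5.20 and 6.49 in the 20 libraries of P2, 6.71, 7.26 and 7.97 in the 16 of P9, 9.21, 9.79 and 10.35 in the 12 of P23 and 9.06, 10.02 and 10.56 in the 16 of P45. Every P9 library was above every P2 library (as for 1.46% of all tested genes) and every P23 library above every P9 library (6.37%), while P23 and P45 overlapped. The LFC from younger to older was 3.59 ± 0.10 (SE, n = 36 younger and 28 older libraries), a 12.1-fold rise with a BH adjusted p of 4.12e-36 in edgeR's quasi-likelihood test, and the errors of the LFCs that follow are SEs of the same fit. The steps were 2.00 ± 0.13 from P2 to P9 and 2.48 ± 0.15 from P9 to P23. Its span overlaps that of Spatc1l, and the counting let a read count for each gene it overlapped.

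The glutamate genes all rose. Slc1a2, the main glutamate transporter of the mature forebrain, lies at chr3:92518679-92665731 on the plus strand. The lowest, median and highest log2 CPM were 4.54, 5.25 and 7.30 (P2), 6.51, 7.29 and 8.31 (P9), 8.77, 9.14 and 10.002 (P23) and 8.54, 9.16 and 10.02 (P45). Every older library lay above every younger one, which held for Slc1a2 and S100b among the 10 genes and for 3.60% of all tested genes in this direction. Its LFC was 2.82 ± 0.13, a 7.06-fold rise with a BH adjusted p of 5.99e-27.

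Slc1a3, the glutamate transporter that radial glia and young astrocytes already carry, lies at chr2:57860881-57935363 on the minus strand. Libraries of P2 had a lowest, median and highest log2 CPM of 8.04, 8.61 and 10.26, against 8.91, 9.56 and 10.52 (P9), 9.75, 10.18 and 10.60 (P23) and 9.59, 10.06 and 10.33 (P45). The highest P2 library, 10.26, was MEC LII replicate 1, and it lay above the median of P45. The LFC was 0.98 ± 0.07, a 1.98-fold rise with a BH adjusted p of 1.29e-17.

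Glul, glutamine synthetase, makes glutamine from the glutamate taken up and lies at chr13:71331052-71340207 on the plus strand. Its lowest, median and highest log2 CPM were 8.18, 8.56 and 9.67 (P2), 9.11, 9.70 and 10.76 (P9), 10.38, 10.83 and 11.46 (P23) and 10.21, 10.70 and 11.24 (P45). Each age up to P23 was higher than the last, with LFCs of 1.26 ± 0.08 and 1.02 ± 0.09, and the ranges of neighbouring ages overlapped. The LFC from younger to older was 1.59 ± 0.06, with a BH adjusted p of 1.14e-29.

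Both channel genes rose. Aqp4, the water channel of the endfeet that astrocytes place on vessels, lies at chr18:6766009-6782757 on the minus strand. Its lowest, median and highest log2 CPM were 5.95, 6.95 and 8.20 (P2), 6.99, 8.47 and 9.65 (P9), 8.73, 9.24 and 9.73 (P23) and 8.48, 9.17 and 10.17 (P45). The LFC was 1.45 ± 0.09 (BH adjusted p = 5.54e-22), with steps of 1.50 ± 0.11 to P9 and 0.66 ± 0.13 to P23. Kcnj10, a potassium channel subunit of astrocytes that oligodendrocytes also carry, lies at chr13:90723092-90752581 on the plus strand. Levels of Kcnj10 had a lowest, median and highest log2 CPM of 0.999, 1.96 and 3.95 (P2), 2.41, 3.40 and 4.63 (P9), 4.03, 4.72 and 5.87 (P23) and 4.15, 5.15 and 5.86 (P45). Its P2 level rests on few reads, 10 to 152 counts in the MEC LII libraries and 13 to 34 in the LEC LII libraries. The LFC was 2.14 ± 0.14 (BH adjusted p = 5.75e-20).

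The gap junction genes rose as well. Gja1 and Gjb6 encode the principal connexins of astrocytes, the proteins that form the channels between cells. Gja1, at chr20:37876650-37889094 on the plus strand, had a lowest, median and highest log2 CPM of 5.07, 6.67 and 7.45 (P2), 5.69, 7.27 and 8.42 (P9), 7.84, 8.38 and 8.90 (P23) and 7.69, 8.41 and 8.91 (P45). Its LFC was 1.33 ± 0.11 (BH adjusted p = 3.54e-16), with steps of 0.80 ± 0.15 and 0.93 ± 0.17. Gjb6, at chr15:37400891-37409668 on the minus strand, rose by 3.12 ± 0.27 (BH adjusted p = 1.32e-15), and by 3.51 ± 0.18 in the 61 libraries. Its step from P2 to P9, 0.75 ± 0.42, missed the threshold (BH adjusted p = 0.118) and was 1.54 ± 0.32 in the 61 libraries. The step passed with limma voom with quantile normalization and no replicate block (1.48 ± 0.50, BH adjusted p = 0.00821). It also passed with voom without the quantile step and a random block (1.62 ± 0.61, BH adjusted p = 0.0192). On counts summed per age and replicate number edgeR called it as well (0.87 ± 0.33, BH adjusted p = 0.0334). From P9 to P23 Gjb6 rose by 2.68 ± 0.39 (BH adjusted p = 3.04e-08).

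Gfap and Aldh1l1, both used to mark astrocytes in tissue, went in opposite directions. Gfap, at chr10:90990762-90999435 on the minus strand, rose by 1.57 ± 0.10 (BH adjusted p = 1.49e-21), with median log2 CPM of 7.10 (P2), 8.46 (P9), 9.17 (P23) and 9.48 (P45). Aldh1l1, at chr4:123516553-123557525 on the minus strand, had an LFC of -0.21 ± 0.06 (BH adjusted p = 0.00228). Its lowest, median and highest log2 CPM were 5.19, 5.88 and 6.73 (P2), 4.14, 5.38 and 6.65 (P9), 4.99, 5.48 and 5.92 (P23) and 4.75, 5.56 and 6.05 (P45), ranges that overlap. Over both layers together the fall was between P2 and P9 (-0.64 ± 0.08, BH adjusted p = 3.35e-09). From P9 to P23 the pooled LFC was 0.10 ± 0.10 (BH adjusted p = 0.343), but the layers took unlike courses. From P2 to P45 the mean log2 CPM was 6.34, 6.06, 5.80 and 5.84 in LII and 5.62, 4.62, 5.13 and 5.11 in LDeep. The steps were not tested within a layer.

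By step, 8 of the 10 genes rose from P2 to P9, Aldh1l1 fell and Gjb6 missed the threshold, where 63.4% of all tested genes changed. From P9 to P23 all but Aldh1l1 rose, where 32.5% of all tested genes rose and 32.1% fell. From P23 to P45 edgeR called 0 of the 10, with 1 at an unadjusted p under 0.05 (Gfap, 0.33 ± 0.14, BH adjusted p = 0.223), where 3.85% of all tested genes changed. DESeq2 and limma voom also called 0 there, and the LFCs lay between -0.14 and 0.36. No age difference was shown to depend on the region (0 of 10 called by edgeR, 0 at an unadjusted p under 0.05, where 4.38% of all tested genes were called).

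**Figure D2:**
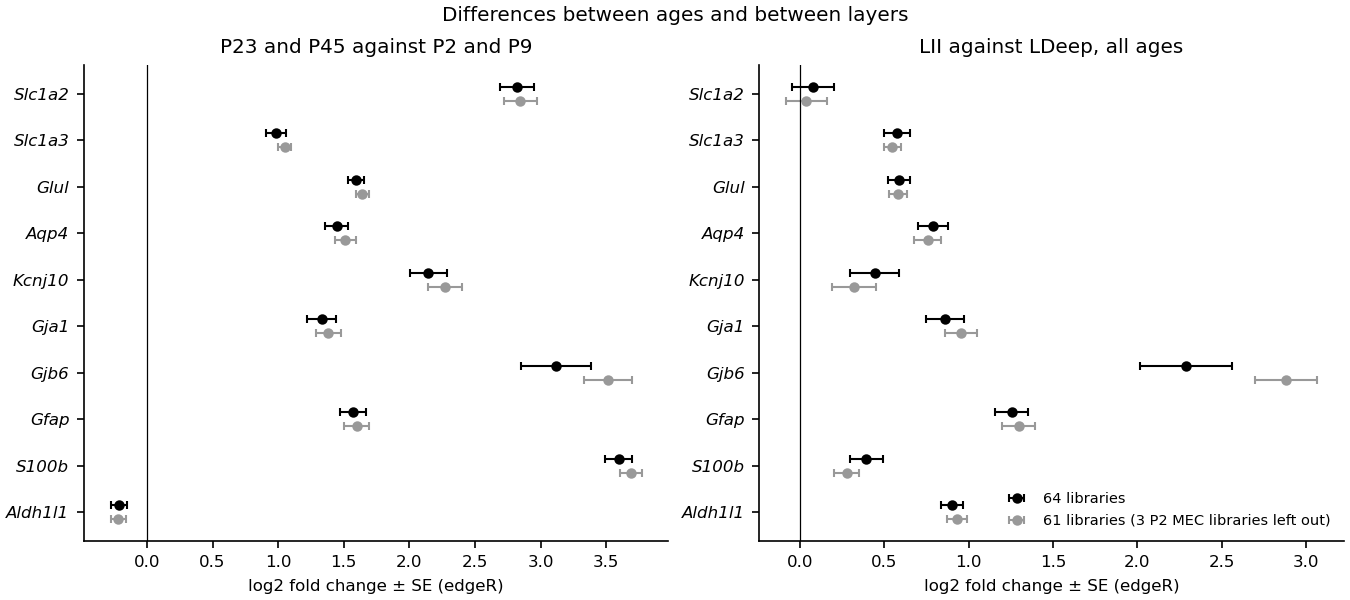
Log2 fold change with its SE (x axis) of each gene (y axis) for the older against the younger ages (left) and for LII against LDeep (right), from 64 libraries in black and from 61 in grey. On the left S100b is highest at 3.59 and Aldh1l1 is below 0, and on the right Gjb6 is highest at 2.29 and Slc1a2 is at 0.08.

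Markers of other cell types moved with age too, where 41.0% of all tested genes rose and 40.6% fell. All 8 oligodendrocyte markers rose, with a median LFC of 4.55 and summed levels of 124 to 950 CPM in younger and 849 to 17059 CPM in older libraries. Of 8 neuronal markers 7 rose and 1 fell, Slc17a6 (LFC -1.74, named after its value was seen), with sums of 1028 to 3509 CPM and 4126 to 6100 CPM. All 7 microglia markers rose, with sums of 59.5 to 255 CPM and 271 to 465 CPM. The oligodendrocyte marker Mobp was at 0 in 13 LII and 14 LDeep libraries. The part of these cells in the age differences of S100b, Glul and Kcnj10, which oligodendrocytes are known to express, was not tested.

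Per annotated exon length, the order of the 10 genes changed with age. The order within an age depends on these lengths, such as 1528 bases for Slc1a2 and 3935 for Slc1a3. TPM, the count per exon length scaled to a fixed total in each library, was averaged over the libraries that share an age and a replicate number, and the errors are SDs over these numbers (n = 5, 4, 3 and 4 from the youngest age to the oldest). At P2 Glul stood first at 329 ± 66.9 TPM, followed by Slc1a3 at 225 ± 69.1 TPM and Gfap at 119 ± 28.9 TPM, with the ranges of Glul and Slc1a3 overlapping and those of Slc1a3 and Gfap apart. From Gfap down to Aldh1l1 (48.8 ± 5.94 TPM) each gene overlapped the next, and Gjb6 (16.6 ± 6.82 TPM) and Kcnj10 (6.51 ± 2.91 TPM) closed the order. At P9 Glul was at 772 ± 163 TPM, apart from Slc1a3 at 390 ± 55.9 TPM. At P23 the order was Glul (1433 ± 60.0 TPM), S100b (1105 ± 94.0 TPM), Slc1a2 (743 ± 113 TPM), Slc1a3 (544 ± 36.5 TPM) and Gfap (394 ± 33.8 TPM), with no overlap between neighbours. At P45 S100b (1309 ± 86.9 TPM) overlapped Glul (1335 ± 31.4 TPM). Aldh1l1 was last at both older ages (29.2 ± 2.39 TPM and 30.2 ± 4.13 TPM) and overlapped Kcnj10 (36.6 ± 8.08 TPM and 46.4 ± 10.4 TPM).

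**Figure D3:**
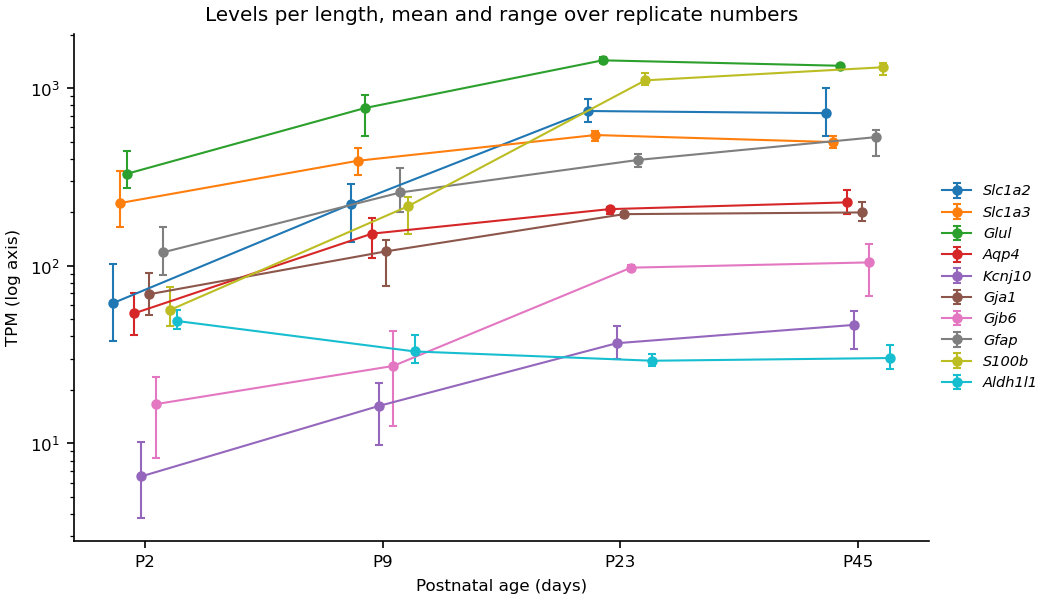
TPM (y axis, log scale) of the 10 genes by postnatal age (x axis). Points are means over replicate numbers and bars their full range. Glul has the highest mean at each age, S100b goes from 56.3 to 1309 TPM, and Aldh1l1 goes from 48.8 to 30.2 TPM.

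Ratios of one gene to another within a library do not depend on its total, but their sign depends on the exon lengths used. Each log2 ratio of counts per length was averaged over the libraries that share an age and a replicate number, giving 9 younger and 7 older units. Slc1a2 over Slc1a3, the transporter of the mature forebrain over the early one, was -1.45 ± 0.67 (SD) in the younger and 0.46 ± 0.25 in the older units, a difference of 1.92. Gjb6 over Gja1 went from -3.52 ± 0.53 to -1.09 ± 0.39, and Gfap over Aldh1l1 from 1.95 ± 0.91 to 3.87 ± 0.26. Aqp4 over Kcnj10 went down, from 3.17 ± 0.24 to 2.41 ± 0.26, as did Glul over Slc1a2, from 2.23 ± 0.47 to 0.94 ± 0.31. In none of the 5 did the younger and older units overlap. The exact permutation test gave p = 0.000175 for each, the smallest that 11440 arrangements allow, and the same value after BH adjustment over the 5 ratios. No share over other pairs of genes was computed. With age 81.6% of all tested genes changed, so the separation is not shown to be particular to these pairs.

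**Figure D4:**
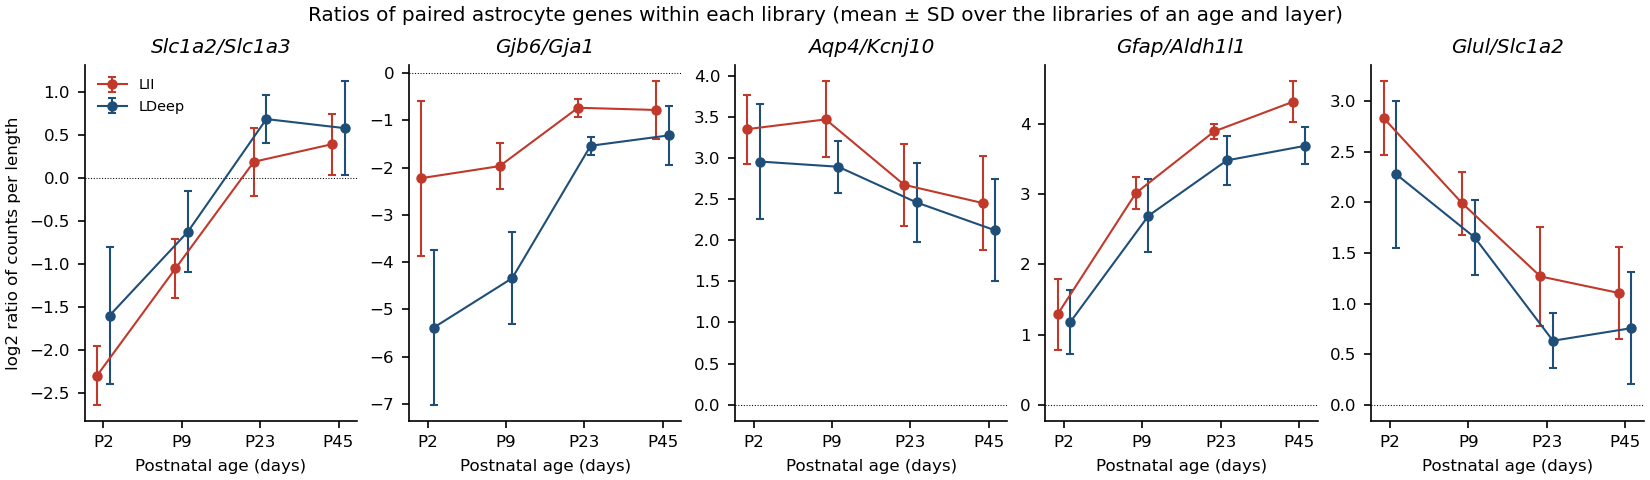
Log2 ratio of counts per length (y axis) for 5 gene pairs by postnatal age (x axis), as mean and SD over the libraries of a layer, LII in red and LDeep in blue. Slc1a2/Slc1a3 is below 0 at P2 and P9 and above 0 at P23 and P45 in both layers, and the mean of Gjb6/Gja1 is higher in LII at all 4 ages.

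Between layers, 9 of the 10 genes were higher in LII than in LDeep, and Slc1a2 did not pass the test. Over all ages and both regions 23.5% of all tested genes were higher in LII and 30.5% lower. The median LFC of the 10 genes was 0.69, against -0.05 for all tested genes. Again 9 were called in the 61 libraries, Gjb6 included, with a median of 0.67. Markers of other cell types moved with the layer too. Of the 10 meningeal fibroblast markers 9 were higher in LII and 1 lower, Dcn (LFC -0.48, named after its value was seen), with a median LFC of 3.84 and sums of 43.6 to 1752 CPM in LII and 30.5 to 1192 CPM in LDeep, or 277 to 1752 CPM and 30.5 to 369 CPM in the 61 libraries. The meningeal marker Col1a2 was at 0 in 11 of 32 LDeep libraries. All 8 endothelial and pericyte markers were higher in LII, with sums of 223 to 582 CPM and 181 to 408 CPM. From P9 to P45 the median sum of oligodendrocyte markers was 1333 CPM in LII and 4113 CPM in LDeep. That of neuronal markers was 4439 and 5366 CPM, and that of microglia markers 359 and 293 CPM. The part of all these cells in the layer differences was not tested.

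Gjb6 had the largest layer difference of the 10, an LFC of 2.29 ± 0.27 (4.89-fold, BH adjusted p = 3.35e-10), and 2.88 ± 0.18 in the 61 libraries. At P2 its lowest, median and highest log2 CPM were 0.39, 4.50 and 5.40 in LII and -1.31, -0.28 and 5.06 in LDeep, and the overlap came from the 3 libraries named above. At P9 they were 3.57, 5.27 and 6.50 in LII and 0.37, 1.60 and 4.25 in LDeep. The highest LDeep library at P9, MEC replicate 3, also had the highest meningeal sum of the LDeep libraries at that age, 369 CPM. At P23 the layers were apart, with 6.91, 7.02 and 7.40 in LII and 5.42, 5.62 and 5.77 in LDeep. At P45 they were 6.27, 7.25 and 7.53 and 4.95, 5.91 and 6.32, with a slight overlap. In LDeep at P2 the LEC libraries held 1 to 22 counts of Gjb6, so these levels rest on few reads.

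The layer difference of Gjb6 was smaller at the older ages. It was 3.05 ± 0.57 (P2), 3.40 ± 0.57 (P9), 1.48 ± 0.54 (P23) and 1.23 ± 0.47 (P45), and the older minus younger difference was -1.87 ± 0.54 (BH adjusted p = 0.0196). Without the 3 libraries the P2 value was 5.39 ± 0.46 and the older minus younger difference -3.03 ± 0.38, values that follow from how the libraries were chosen. The calls at P23 (BH adjusted p = 0.0359) and P45 (0.0434) were lost in 6 of 16 and 8 of 16 fits that each leave out a replicate number of 1 age, among them every fit without one of the age concerned. After the group means were subtracted, Gjb6 followed the summed meningeal markers with a Pearson r of 0.88 over 64 libraries and 0.80 over 61, Gja1 with 0.45 and 0.34, Gfap with 0.25 and 0.20 and S100b with -0.45 and -0.14. With the summed markers of endothelium and pericytes the values were 0.79 and 0.62 for Gjb6, 0.56 and 0.45 for Gja1, 0.45 and 0.44 for Gfap and -0.42 and -0.15 for S100b, so the relation was not particular to the meningeal markers. These values describe libraries in which both measures share the RNA and the depth.

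**Figure D5:**
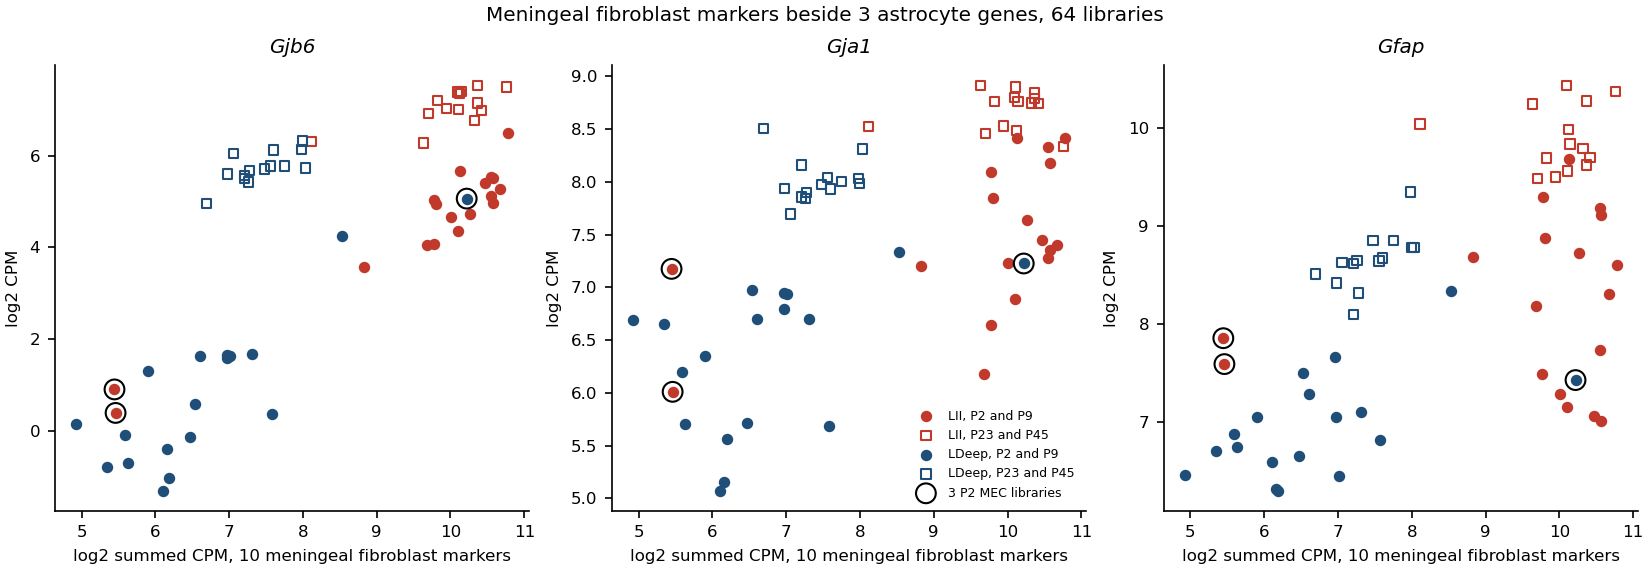
Log2 CPM (y axis) of Gjb6, Gja1 and Gfap against the log2 summed CPM of 10 meningeal fibroblast markers (x axis) in 64 libraries, LII in red and LDeep in blue. Rings mark the 3 MEC libraries at P2 that stand apart, and the ringed LDeep library has a Gjb6 level of 5.06 while the ringed LII libraries are at 0.90 and 0.39.

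Gfap was higher in LII by 1.26 ± 0.10 (BH adjusted p = 3.81e-16) and in 32 of 32 pairs of libraries that share region, age and number (30 of 30 without the 3 libraries). At P2 its lowest, median and highest log2 CPM were 7.001, 7.53 and 8.30 in LII and 6.30, 6.67 and 7.42 in LDeep, which overlap. LII libraries of P9 had 8.60, 8.99 and 9.68, with 6.44, 7.07 and 8.33 in LDeep. The P23 values were 9.48, 9.62 and 9.83 in LII against 8.10, 8.63 and 8.85 in LDeep, and those of P45 9.62, 10.14 and 10.43 against 8.41, 8.65 and 9.34. From P9 on, every LII library was above every LDeep library of its age. In the LII libraries of the MEC at P2 with low meningeal sums Gfap was 7.85 and 7.59. MEC LDeep replicate 1, with a high meningeal sum, had 7.42, against 6.30 to 6.74 in MEC LDeep replicates 2 to 5 of that age. The part of meningeal cells in these levels was not tested.

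Aldh1l1 was higher in LII by 0.90 ± 0.06 (BH adjusted p = 1.65e-17) and in 31 of 32 pairs (30 of 30 without the 3 libraries). Its lowest, median and highest log2 CPM were 5.74, 6.04 and 6.65 in LII and 4.14, 4.72 and 5.02 in LDeep at P9, and 5.70, 5.83 and 6.05 and 4.75, 5.13 and 5.42 at P45. The layers overlapped at P2 and were apart at the other 3 ages. The layer difference was 0.75 ± 0.11 (P2), 1.46 ± 0.13 (P9), 0.66 ± 0.14 (P23) and 0.74 ± 0.13 (P45), and its older minus younger difference was -0.40 ± 0.13 (BH adjusted p = 0.0335). Gjb6 and Aldh1l1 were thus 2 of 10 genes whose layer difference changed with age, where 8.80% of all tested genes did. Without replicate 2 of P23 neither passed, and without replicate 2 of P2 or replicate 1 of P9 Gjb6 did not. Without the 3 libraries 4 were called, among them Gjb6, by whose level the libraries were chosen. Gja1 (-0.54 ± 0.19, BH adjusted p = 0.0496) and S100b (0.52 ± 0.15, BH adjusted p = 0.0154) were added.

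Among the other genes, Gja1 was higher in LII by 0.86 ± 0.11, Aqp4 by 0.79 ± 0.09, Glul by 0.59 ± 0.06 and Slc1a3 by 0.58 ± 0.08, with BH adjusted p from 1.99e-11 to 4.30e-09. Kcnj10 was higher by 0.44 ± 0.14 (BH adjusted p = 0.00789) and S100b by 0.39 ± 0.10 (BH adjusted p = 0.000646). Slc1a2 differed by 0.08 ± 0.13 (BH adjusted p = 0.621) and was higher in LII in 21 of 32 pairs. At P2 S100b differed by 0.02 ± 0.18 in all libraries (BH adjusted p = 0.951). In the 61 libraries it was lower in LII, at -0.48 ± 0.15 (BH adjusted p = 0.0157). That value is a description, since the 61 were chosen after the data were seen.

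By age, the genes higher in LII numbered 6 (P2), 8 (P9), 8 (P23) and 7 (P45) of 10, where 10.8%, 16.7%, 14.8% and 14.4% of all tested genes were. None of the 10 was lower. In these 64 libraries Slc1a2 and Kcnj10 passed at no single age with edgeR. With a replicate block Glul also passed at P2 (0.24 ± 0.08, BH adjusted p = 0.0273). Every LII library was above every LDeep library for 3 genes at P9 (Aldh1l1, Aqp4 and Gfap), 8 at P23 (all but Kcnj10 and Slc1a2) and 5 at P45 (Aldh1l1, Aqp4, Gfap, Glul and Slc1a3), as for 5.24%, 9.66% and 4.20% of all tested genes. Without replicate 1, 2 or 3 of P23 the calls at that age dropped to 3, 4 and 5 of the 10, and without replicate 1 or 3 of P45 those at P45 dropped to 4. In the 61 libraries, with Gjb6 counted at each age, 7 were called at P2, S100b among them as lower in LII. At P9 the count was 9, with Kcnj10 added (0.60 ± 0.24, BH adjusted p = 0.0491). It was 8 at P23 and 8 at P45, with S100b added at P45. With limma voom Kcnj10 passed at P45 as well (0.48 ± 0.18, BH adjusted p = 0.0482).

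In the MEC 9 genes were higher in LII and in the LEC 7, where 21.0% and 17.4% of all tested genes were. Kcnj10 (0.69 ± 0.20 in the MEC and 0.19 ± 0.21 in the LEC) and S100b (0.53 ± 0.14 and 0.25 ± 0.14) account for the gap. The layer difference was not shown to differ between the regions for any of the 10 (0 called by edgeR, 2 at an unadjusted p under 0.05, where 1.25% of all tested genes were called, 156 genes against 286 with a replicate block). The 2 were Slc1a3 (0.31 ± 0.15, MEC minus LEC) and Gjb6 (-1.14 ± 0.55). In the 61 libraries Slc1a3 was at 0.22 ± 0.10 and Gjb6 at 0.02 ± 0.33. Without the 3 libraries 8 of the 10 were called between layers in each region, Gjb6 included. Kcnj10 in the MEC was then at 0.44 ± 0.19 (BH adjusted p = 0.0573).

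Between the regions 1 of the 10 genes passed, Slc1a2, which was higher in the MEC by 0.37 ± 0.13 (BH adjusted p = 0.0364), where 8.87% of all tested genes were higher in the MEC and 6.53% lower. It was higher in the MEC in 21 of 32 pairs, and its values overlapped between the regions at each age. Genes that missed the threshold had tallies further from even, with Glul higher in the MEC in 26 of 32 pairs, Gjb6 in 23, Gfap in 22 and Aqp4 in 9. In the 61 libraries the LFC of Slc1a2 was 0.34 ± 0.12 (BH adjusted p = 0.042). The call was lost in 9 of 16 fits that each leave out a replicate number of 1 age, which were replicate 1 of P2, replicates 1 and 2 of P9, all 3 of P23 and replicates 1 to 3 of P45. The LFCs of the other 9 genes lay between -0.11 and 0.62, with Gjb6 at 0.62 ± 0.27 (BH adjusted p = 0.122). In the 61 libraries, chosen partly by its level, Gjb6 was at 0.22 ± 0.22.

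In LII alone Kcnj10 was higher in the MEC, by 0.60 ± 0.20 (BH adjusted p = 0.0387, where 8.38% of all tested genes were), but in the 61 libraries it was at 0.33 ± 0.19 (BH adjusted p = 0.27). The call was lost in 9 of 16 fits without a replicate number of 1 age, those of P2 replicate 1, of P9 and P23 replicates 1 to 3 and of P45 replicates 1 and 3. With a replicate block Slc1a2 passed in LII too (0.50 ± 0.14, BH adjusted p = 0.00976). In LDeep alone edgeR called 0 of the 10, with 2 at an unadjusted p under 0.05, where 5.78% of all tested genes differed. At single ages it also called 0, with 1 gene at an unadjusted p under 0.05 at P2 and 1 at P9, Slc1a2 both times, and 0 at P23 and P45. Of all tested genes 2.67%, 3.88%, 3.57% and 9.12% differed at these ages, and DESeq2 called 0 of the 10 at each of them. Sums of oligodendrocyte markers were higher in the MEC at P23 and P45. In LII their median was 4468 CPM in the MEC and 1578 CPM in the LEC at P23, and 4015 and 1134 CPM at P45. At P2 it was 180 and 162 CPM, and at P9 182 and 196 CPM. In LDeep it was 16683 and 4642 CPM at P23, and 10040 and 3684 CPM at P45. The part of these cells in the region differences was not tested.

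Other astrocyte genes give the setting of the 10. The counts of this and the next lists stand beside 41.0% of all tested genes that rose and 40.6% that fell with age, and 23.5% higher and 30.5% lower in LII. Of 34 in the files 32 rose with age and 0 fell, with a median LFC of 1.37, and 27 were higher in LII and 0 lower, with a median of 0.40. The neurotensin receptor Ntsr2 rose by 5.54 ± 0.13, Agt, the precursor of angiotensin, by 3.79 ± 0.17, the claudin Cldn10 by 2.79 ± 0.11 and Ndrg2 by 2.54 ± 0.08. Lcat, which esterifies cholesterol, was higher in LII by 2.42 ± 0.12, and Slc7a11, a cystine and glutamate exchanger, by 2.06 ± 0.22. Between regions, where 8.87% of all tested genes were higher in the MEC and 6.53% lower, 1 was higher in the MEC, the thyroid hormone deiodinase Dio2 (0.56 ± 0.12), and 3 were lower.

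Of 12 genes that handle glutamate and glutamine 9 rose with age and 2 fell (41.0% and 40.6% of all tested genes), with a median LFC of 0.45. The glutaminase Gls2 rose by 2.44 ± 0.06, the transaminase Got1 by 1.41 ± 0.05 and Pc, pyruvate carboxylase, by 1.08 ± 0.04, while the glutamine transporter Slc38a5 fell by 2.45 on the log2 scale (SE 0.11). Between layers 5 were higher in LII and 4 lower (23.5% and 30.5% of all tested genes). The glutamine transporters Slc38a5 (0.94 ± 0.11) and Slc38a3 (0.72 ± 0.05) were among the higher ones, and Slc1a1, the neuronal glutamate transporter, was lower (-0.41 ± 0.03).

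Of 10 genes for endfoot anchoring and partner channels 7 rose with age and 2 fell. Kcnj16, which forms channels with Kcnj10, rose by 1.54 ± 0.21 and the astrocyte membrane protein Mlc1 by 1.50 ± 0.08, while Agrn, the matrix protein agrin, fell by 1.69 on the log2 scale (SE 0.09). Between layers 6 were higher in LII and 2 lower, with the cation channel Trpv4 at 1.77 ± 0.20 and Kcnj16 at 1.25 ± 0.21. Of 9 other connexins and pannexins 4 rose with age and 4 fell. Gjb1, a connexin of oligodendrocytes, rose by 2.41 ± 0.13 and was lower in LII (-0.66 ± 0.13). Gjb2, a connexin of astrocytes and of the leptomeninges, was higher in LII by 3.68 ± 0.33.

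Of 13 regulators of astrocyte formation 7 rose with age and 3 fell. Id4, an inhibitor of bHLH factors, rose by 0.86 ± 0.20 and the nuclear factor I gene Nfia by 0.32 ± 0.13, while Nfib, of the same family, fell by 0.62 on the log2 scale (SE 0.10) and Hes5, a Notch target, by 1.21 on the log2 scale (SE 0.08). Of 9 genes of radial glia and immature astrocytes, a list that holds Slc1a3, 2 rose and 6 fell with age, and all 9 were higher in LII. Fabp7, a fatty acid binding protein, fell by 3.97 on the log2 scale (SE 0.10), the matrix protein Tnc by 3.84 on the log2 scale (SE 0.14) and the filament protein Nes by 2.16 on the log2 scale (SE 0.10), while Hopx rose by 2.22 ± 0.11. Of 10 tested genes of reactive astrocytes 6 rose and 3 fell with age, and 8 were higher in LII and 0 lower. Timp1 (2.34 ± 0.16) and Vim (2.33 ± 0.12), which fibroblasts also express, led in LII, and Vim is in both of these lists.

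Within groups the 10 genes varied together to unequal degrees. After the group means were subtracted, the 45 pairs had a median Pearson r of 0.33 over 64 libraries, and 39 were above 0. The highest was 0.85, for Slc1a2 with Kcnj10, and the lowest -0.27, for Gjb6 with S100b, which was 0.10 in the 61 libraries. Slc1a3 with Glul was 0.83 and Gja1 with Gjb6 0.67. Slc1a2 and Kcnj10 also followed the summed markers of oligodendrocyte precursors, with r of 0.76 and 0.74, where the other genes lay between -0.04 and 0.42. With the summed neuronal markers Slc1a2 had 0.54 and Kcnj10 0.53, as did S100b (0.54) and Aqp4 (0.53). The part of these cells in the pairs was not tested. Over 64 libraries Aldh1l1 lay between -0.14 (S100b) and 0.34 (Gfap) with the others. In the 61 libraries it lay between -0.11 (S100b) and 0.43 (Slc1a3). Its r with Slc1a3 was -0.04 over 64 libraries, and that with Glul went from -0.03 to 0.25. The r of Aldh1l1 was higher in the 61 libraries with every gene but Gjb6, where it went from 0.16 to 0.08.

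The genes outside the list whose pattern was most like the mean of the 10 standardised profiles were sought among 11887 genes. Over the 16 group means they were Cyp7b1 (0.99), Aldh6a1 (0.99), Cpq (0.99), Cyp4v3 (0.99) and Zcchc24 (0.99), each with its Pearson r. Within groups, over 64 libraries, they were Fam107a (0.84), Jam2 (0.83), Il6st (0.80), Mfap3l (0.79) and S1pr1 (0.78). All these values come from libraries that share depth, age and tissue, and they are given as descriptions.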

How the data were processed

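Total RNA from the 64 dissected samples had been made into stranded, ribosomal RNA-depleted Illumina libraries and sequenced on an Illumina HiSeq instrument. Per the labels and the file headers, the authors trimmed reads with Trimmomatic 0.33, aligned them to Rn6 with STAR 2.4.0 and counted read pairs over the exons of RefSeq genes with featureCounts from Subread 1.4.6-p1. Pairs had to map at both ends, on the stated strand, and could count for each gene they overlapped. The deposited values are raw counts per gene, 1 library per file, with no normalization.

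Counts of 17260 genes were normalized by TMM and filtered by filterByExpr over the 16 groups, which left 12521 genes. One quasi-likelihood fit of edgeR 4.0.16 (R 4.3.3) with a mean per group and no replicate block gave all contrasts, with Benjamini-Hochberg adjustment over all tested genes and a threshold of 0.05. The study numbers both layers of an animal alike in a plot of its MEC microRNA samples, so the replicate number was tried as a block here. As a check, deviations from the group means had a mean r of 0.134 between libraries of an age with the same number (55 of 96 pairs over 0.1; 8 of 16 for the MEC layers) and -0.043 otherwise (59 of 300 pairs). SEs were taken from the LFC and its F statistic. Levels are given as log2 CPM (prior count 2), and TPM used the exon lengths of the files. Gene ratios (pseudocount 0.5) were compared with a two-sided exact permutation test. The script was tested on simulated data with known fold changes. Within groups, chi-square per degree of freedom was at least 2.82 in each of 100 replicate pairs, so no library looked deposited again.

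The 10 genes and all lists were chosen with earlier results of these data known, so the lists are described by counts and medians and no list was tested. From each list, up to 4 called genes per direction with the largest age LFC, and up to 2 for layer and for region, could be named, and the 5 genes most like the 10 by Pearson r among genes of at least 1 CPM. Ranbp3l, Dtna, Hepacam, Gjc3 and Rfx4 were not found by symbol, and Serpina3n, Lcn2, Steap4, Folr1 and Tmem212 did not pass the filter. Alternatives were DESeq2 1.42.0, limma 3.58.1 voom, RLE factors, other count filters, replicate blocks, summed counts, fits of 1 region, fits that each leave out a replicate number of 1 age, and a fit without 3 P2 libraries.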

Additional observations from a re-analysis of the deposited data

Results flagged for a closer look

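In 120 sets of a gene in a group of 4 or 5 libraries, 14 held a library far from the others by Dixon's criterion, where chance gives about 1 in 20. At P2, MEC LII replicate 1 was the highest of its group for Slc1a2 (6.53 log2 CPM), Slc1a3 (10.26) and Glul (9.67), and MEC LDeep replicate 1 was the highest for Glul (8.76), Gja1 (7.23) and Gjb6 (5.06). MEC LDeep replicate 4 at P2 was the highest for Slc1a2 (7.30). At P9, LEC LII replicate 4 was the lowest for Aqp4 (8.77 log2 CPM) and S100b (6.88), and LEC LDeep replicate 1 for Aldh1l1 (4.54). At P45, MEC LII replicate 3 was the lowest for Slc1a3 (10.22 log2 CPM), MEC LII replicate 4 for Gjb6 (6.30) and MEC LDeep replicate 3 for Gja1 (7.69), while LEC LDeep replicate 4 was the highest for Slc1a2 (10.02).

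The layer difference depended on age, by a test of the interaction in edgeR, for Gjb6 (-1.87 on the log2 scale, older minus younger) and Aldh1l1 (-0.40).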

How the results depend on the processing

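Under every alternative run, each of the 10 genes that was tested passed from younger to older ages, at least 8 passed from P9 to P23 and all 5 ratios kept their call. With a fixed replicate block 9 of the 10 genes passed between layers and 7 at P2 (Glul added), 2 passed between regions in LII (1 without it, Slc1a2 added), and 286 of all genes had a layer difference that depended on region (156 without it). With a random replicate block (limma voom) 10 of the 10 genes passed from P2 to P9 (9 with edgeR, Gjb6 added). Gjb6 also passed there with quantile-normalized voom and no block, and with edgeR on summed counts. With the random block 248 of all genes changed from P23 to P45 (482 with edgeR), against 60 on summed counts. The replicate block changed no other call of the 10 genes. Requiring at least 10 counts in every sample, which tests fewer genes, lowered the layer calls over all genes from 6767 to 4353, at P2 from 2409 to 1232, at P9 from 4128 to 2430, at P23 from 3239 to 2137, at P45 from 3310 to 2046, in the MEC from 5112 to 3312 and in the LEC from 4835 to 2892, and left 1 of the 10 genes with an age-dependent layer difference, since Gjb6 was then not tested. DESeq2 called 2 of the 10 between regions in LII, and lost Gjb6 between layers at P23 (adjusted p = 0.114) and P45 (0.127). Voom with quantile normalization called 0 of the 10 between regions. Without the 3 P2 libraries, 731 of all genes changed from P23 to P45, 744 and 692 differed between regions at P9 and P23 (486 and 447 in all libraries), 241 had a region-dependent layer difference, 0 of the 10 genes differed between regions in LII and 4 had an age-dependent layer difference. The 4 include Gjb6, by whose level the 3 libraries were chosen. The cause of these shifts was not tested.

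Of the 210 LFCs of the 10 genes over all comparisons, 31 changed sign under at least 1 alternative other than leaving out a replicate number, and 0 of these had passed in the 64 libraries with edgeR. Voom with quantile normalization turned 20, leaving out the 3 P2 libraries 19 and the fixed replicate block 9. The largest that turned was that of Gjb6 between regions at P2, 1.14 in all libraries, -0.51 with voom and -0.45 without the 3. S100b between layers at P2 was 0.02 in all libraries, -0.0327 with voom and -0.0290 with the fixed replicate block. Without the 3 it was -0.478 and was called, in libraries chosen after the data were seen. Over all ages, Aldh1l1 from P9 to P23 turned on summed counts (-0.0274), and, between regions, Slc1a3 (-0.0042) and S100b (-0.00948) with voom, S100b (-0.0691) and Aldh1l1 (0.00242) without the 3 libraries, and Aldh1l1 (0.00143) with no filter. Leaving out each replicate number of an age in turn gave S100b layer LFCs at P2 of -0.157 to 0.224, and regional LFCs of -0.0116 to 0.0715 for S100b and -0.0513 to 0.0211 for Aldh1l1. The same fits called, of the 10 genes, 4 to 7 between layers at P2, 3 to 8 at P23 and 4 to 7 at P45, 0 to 2 between regions, 0 to 2 in LII, 0 to 1 in LDeep, and 0 to 2 for the age-dependent layer difference. Over all genes they called 283 to 629 from P23 to P45, 1437 to 2333 between layers at P2, 2791 to 4358 at P9, 2065 to 3695 at P23 and 2416 to 4064 at P45. Between regions they called 122 to 512 at P2, 263 to 636 at P9, 112 to 607 at P23, 530 to 1351 at P45, 1134 to 1676 in LII and 490 to 828 in LDeep. They called 761 to 1505 for the age-dependent and 63 to 218 for the region-dependent layer difference, and 302 to 666 for the age-dependent region difference. Depth limits Gjb6 in LDeep at P2, where some libraries held 1 count.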
